A study of Mus musculus with 23 samples.

Results

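The effect of a single Polb copy, which encodes DNA polymerase beta, was examined in the hippocampus of mice carrying Alzheimer's disease transgenes. All 9 3xTgAD/PolB+/- mice were compared with all 10 3xTgAD mice, whether given vehicle or urolithin A, with treatment as a second factor. These were 19 of the 23 mice measured, and the 4 wild-type mice were not compared. The 3xTgAD genotype included Tg(APPSwe,tauP301L)1Lfa, which joins a human APP transgene with the Swedish mutation and a human tau transgene with P301L. The 3xTgAD/PolB+/- genotype added heterozygous Polbtm1Rsky, so that 1 Polb allele remained and both arms carried the whole 3xTgAD background. Vehicle was given to 5 3xTgAD mice (3 females and 2 males) and 4 3xTgAD/PolB+/- mice (1 female and 3 males). Urolithin A, a compound made by gut bacteria from plant ellagitannins, went by gavage for 5 months, in a daily dose of 200 mg per kg, to 5 3xTgAD mice (2 females and 3 males) and 5 3xTgAD/PolB+/- mice (3 females and 2 males). All mice were 18 months old with a strain label of C57BL6/J. The promoters of the transgenes and the litters of the mice are not given in the sources used here, and samples were taken as separate mice.

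DNA polymerase beta fills the short gap that is left when a damaged base is cut out in base excision repair, the pathway that mends most oxidised, deaminated and alkylated bases. In the brain it acts in neurons as well as in dividing cells, and reduced repair of oxidative damage is studied in ageing and neurodegeneration. The comparison asked which genes of a metabolic and immune panel differed when this enzyme's gene was halved in dose.

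RNA was counted on an nCounter panel, in which colour-coded probes are hybridised to transcripts and counted without amplification, and the values are log2 of normalized counts. A difference is the 3xTgAD/PolB+/- mean minus the 3xTgAD mean on that scale, with treatment in the model, and is given with its standard error (SE). Inferred total counts ranged from 186275 to 694031. Replicates 3 and 5 of the treated 3xTgAD/PolB+/- group had the lowest totals, 246028 and 186275, and the other 17 mice had at least 426748. Mean totals were 483199 ± 172453 (SD, n = 9) in 3xTgAD/PolB+/- mice and 529331 ± 73143 (n = 10) in 3xTgAD mice, and the difference was within the spread between mice (exact permutation test within treatments, two-sided, p = 0.461). Replicate 5 of the 3xTgAD vehicle group also stood apart, with an array weight, limma's estimate of how closely a mouse follows the fit, of 0.173, the lowest of the 19. The neuronal markers Mapt, Gad1, Nat8l and Grin1 had at least 292 inferred counts in every mouse, while Ttr, the transthyretin gene that marks choroid plexus, fell into a low range of 4.12 to 7.08 in 8 mice and a high range of 10.41 to 13.55 in 11. In tissue RNA, a change in the number of cells of a type and a change in RNA per cell cannot be told apart.

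No gene on the panel passed the test for a genotype difference. At an adjusted p under 0.05 limma called 0 of 617 genes (0.0%), and the smallest adjusted p was 0.541. At an unadjusted p under 0.05 it marked 40 genes (6.48%), 23 of them higher in 3xTgAD/PolB+/- mice (3.73%) and 17 lower (2.76%), where 5% of the genes would be 30.85. Regression gene by gene, adjusted by Benjamini-Yekutieli, also called 0 genes and marked 38 at an unadjusted p under 0.05. Of the 617 differences, 353 were above 0 (57.2%), 263 below and 1 at 0, with a median of 0.03 and a median size of 0.09. That balance turned with the scaling: quantile normalization gave 263 above and 353 below with a median of -0.02, and centring every mouse on its median gave 304 above and 313 below. The 40 depended on single mice: 96 genes were marked without replicate 5 of the 3xTgAD vehicle group, and 25 without replicate 5 of the treated 3xTgAD/PolB+/- group. Without both mice of low total count 21 were marked, of which 17 were among the 40. With every mouse centred on its median, 51 were marked and 17 of them were higher, and quantile normalization gave 50 with 18 higher.

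The confidence intervals bounded the size of the differences. The 95% confidence interval of a gene reached a median of 0.24 to either side. For 404 genes (65.5%) the whole interval lay within 0.5 log2 of 0, and for 567 (91.9%) it lay within 1 log2. In simulated data made from these mice, with 200 of 617 genes changed, the same test called 73.8% of genes changed by 0.5 log2 and 93.4% of those changed by 1 log2, with genes varying independently. Fewer changed genes, and spread shared between genes, were not simulated. The simulated mice also had equal spread, while array weights of the real mice ran from 0.173 to 2.31. These shares therefore need not hold for these mice.

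**Figure D1:**
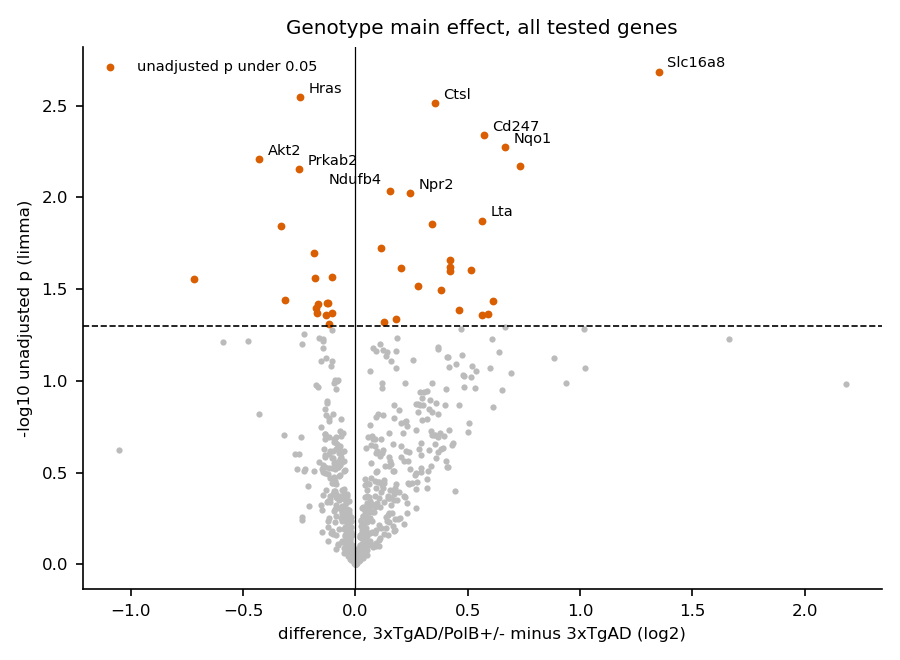
Genotype difference (horizontal axis, log2) of the 617 tested genes against the unadjusted p of limma (vertical axis, -log10). Orange points are the 40 genes above the dashed line, the 10 reported genes with the smallest p are named, and none had an adjusted p under 0.541.

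Polb itself was not analysed here, because it was not among the genes with values, and neither was App, so the halved gene dose could not be checked from these data. Panel genes nearest Polb in order along chromosome 8 of the RefSeq mouse annotation gave no difference past the test, as held for every gene tested. Their distances from Polb were not taken, so they need not flank it closely. Of the 8 nearest panel genes, 4 on either side, 6 were tested. Before Polb, the differences were -0.00 for the collagen gene Col4a2, 0.08 for Col4a1 and -0.07 for Insr, the insulin receptor. After Polb, they were -0.03 for the acetyltransferase gene Kat6a, 0.09 for Ido2 of tryptophan breakdown and 0.13 for Wrn, the Werner helicase. Over the 31 tested genes of chromosome 8, 16 were above 0, the median was 0.00, and 1, Nqo1, had an unadjusted p under 0.05.

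DNA repair genes did not differ past the test. The list of DNA repair and p53 genes had 10 tested members of 73, with 7 above 0 and a median of 0.10, against 0.03 over all tested genes, and under quantile normalization the median was -0.05 with 3 above 0, against -0.02 over all tested genes on that scale. Pole, the catalytic subunit of the replicative DNA polymerase epsilon, had the smallest p of the list. It was at 4.16, 4.21, 4.26 and 4.67 in vehicle 3xTgAD/PolB+/- mice and at 3.84, 3.92, 4.03, 4.31 and 4.37 in vehicle 3xTgAD mice. Under urolithin A it was at 4.03, 4.17, 4.24, 5.27 and 5.78 in 3xTgAD/PolB+/- mice and at 3.83, 3.84, 4.0, 4.23 and 4.28 in 3xTgAD mice. Only the log2 values 4.37 in 3xTgAD mice and 4.67, 5.27 and 5.78 in 3xTgAD/PolB+/- mice reached the 20 normalized counts needed for testing. The 2 highest values, 5.27 and 5.78, came from the mice of low total count, and the groups overlapped in both treatments. The difference was 0.46 (SE 0.210, adjusted p = 0.650 in limma) with all mice and 0.18 without those 2. Pole stood on 19 and 20 inferred counts in them and on 12 to 28 in the other 17 mice, so its count was no lower in the mice of low total count. Trp53, the gene of p53, differed by 0.22 (SE 0.128, adjusted p = 0.662), or 0.13 under quantile normalization. Within treatments Trp53 differed by 0.39 on vehicle and 0.07 under urolithin A.

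**Figure D2:**
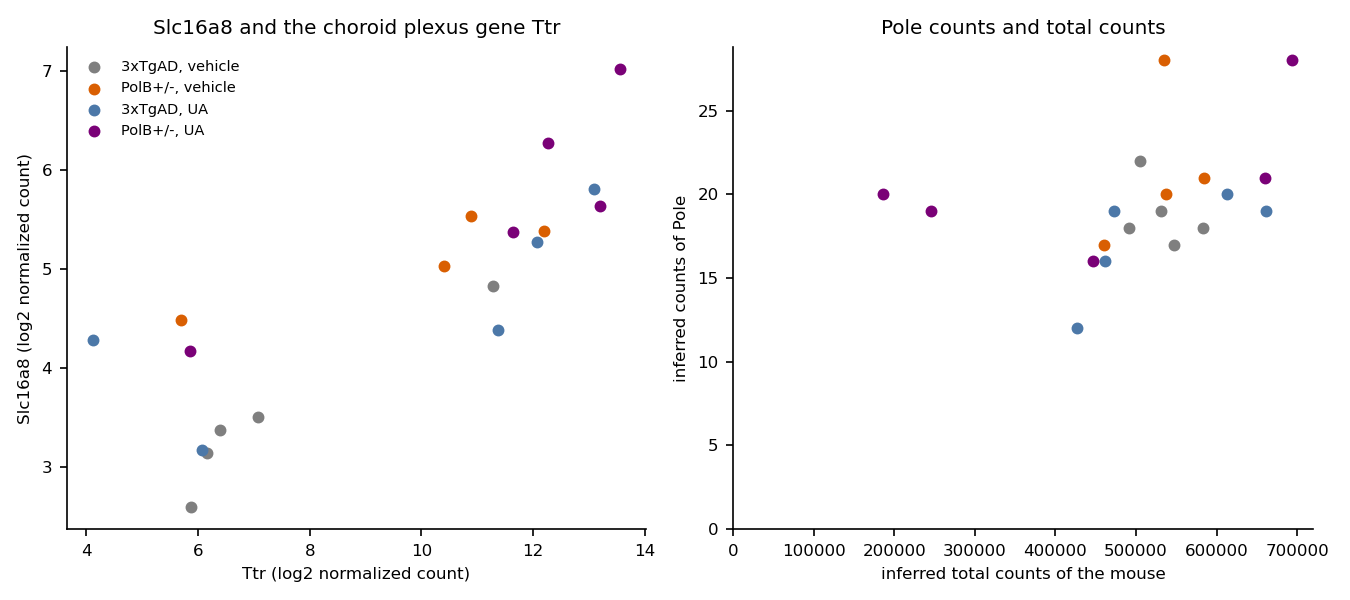
Left, Slc16a8 against the choroid plexus gene Ttr in each of 19 mice (both log2 normalized counts). Right, the inferred counts of Pole against the inferred total counts of each mouse: Pole had 19 and 20 counts in the 2 mice of lowest total and 12 to 28 in the others.

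Other genes of low level were compared with and without those mice. Over the 111 tested genes with a mean below 5, 86 were above 0 with a median of 0.17, and without the 2 mice of low total count 68 were above 0 with a median of 0.07. Cdc20, an activator of the anaphase-promoting complex, differed by 0.67 (SE 0.320) and by 0.44 without those mice. The cell cycle list, with 7 of 45 members tested, had 6 above 0 and a median of 0.24, which was 0.04 without them. Its member Cdc20 entered the test at 4.75, 4.35 and 5.46 in 3xTgAD/PolB+/- mice and 4.34 in a treated 3xTgAD mouse. The values 4.35 and 5.46 came from the mice of low total count. Myc, which encodes a growth-promoting transcription factor, differed by 0.26 (SE 0.136) and by 0.14 without them.

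Nucleotide and polyamine synthesis held 2 of the genes with the smallest p, both lower in 3xTgAD/PolB+/- mice and both short of the threshold. Impdh1 encodes inosine monophosphate dehydrogenase, the enzyme that commits purines to guanine nucleotides. On vehicle it was at 7.92, 8.03, 8.09 and 8.15 in 3xTgAD/PolB+/- mice and at 7.98, 8.23, 8.26, 8.37 and 8.70 in 3xTgAD mice. In treated mice it was at 7.57, 7.71, 7.88, 8.04 and 8.4 against 7.93, 8.08, 8.29, 8.41 and 8.87. The groups overlapped in both treatments and the difference was -0.33 (SE 0.123, adjusted p = 0.650), or -0.22 with array weights. Srm, spermidine synthase, was at 8.48 to 8.98 in vehicle 3xTgAD/PolB+/- mice and 8.99 to 9.30 in vehicle 3xTgAD mice, which did not overlap. Its difference was -0.19 (SE 0.0730, adjusted p = 0.650), and -0.11 with array weights. The whole nucleotide list, with 27 of 44 members tested, had 16 above 0 and a median of 0.04, or -0.04 under quantile normalization. Upp1, a uridine phosphorylase, differed by 0.47 (SE 0.226), by 0.28 under quantile normalization and by 0.28 with Ttr as a covariate.

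Lysosomal and immune genes leaned toward higher values in 3xTgAD/PolB+/- mice, without a member past the threshold. Ctsl, the lysosomal protease cathepsin L, was at 8.01, 8.23, 8.27 and 8.34 in vehicle 3xTgAD/PolB+/- mice and at 7.46, 7.64, 7.71, 8.0 and 8.36 in vehicle 3xTgAD mice. With urolithin A it lay at 8.09, 8.34, 8.35, 8.37 and 8.67 against 7.76, 7.98, 8.03, 8.10 and 8.28. All 9 3xTgAD/PolB+/- mice exceeded the 3xTgAD mean of their own treatment, which choosing genes by smallest p favours. The groups overlapped through 1 vehicle 3xTgAD mouse at 8.36 and treated mice between 8.09 and 8.28. The difference was 0.35 (SE 0.105, adjusted p = 0.541 in limma). Ctsl and Hras, 2 of 617 genes, were the only ones with an unadjusted p under 0.05 in each treatment taken alone. On vehicle 3.89% of genes had such a p, and under urolithin A 7.78%.

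The 12 tested lysosome genes, of 44 listed, were all above 0, from 0.02 to 0.54 with a median of 0.21, and 10 of them were above 0 under quantile normalization. Ctsl was the single member of that list with an unadjusted p under 0.05. Ctsz, cathepsin Z, differed by 0.27 (SE 0.264, adjusted p = 0.740). It ranged from 8.34 to 10.47 among vehicle 3xTgAD mice, and without the mouse at 10.47 the difference was 0.43. Without replicate 4 of the vehicle 3xTgAD/PolB+/- group it was 0.12.

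Genes of the disease-associated microglia signature, a state known from amyloid models, had 7 tested members of 26, of which 3 are cathepsins also in the lysosome list beside Ctsl. All 7 were above 0, from 0.27 to 0.43 with a median of 0.37. Apoe, which carries lipids between brain cells, was at 12.89, 13.08, 13.43 and 13.93 in vehicle 3xTgAD/PolB+/- mice and at 12.74, 12.79, 12.85, 12.93 and 13.99 in vehicle 3xTgAD mice. Under urolithin A it was at 13.29, 13.31, 13.67, 13.72 and 13.76 against 12.29, 12.87, 13.17, 13.55 and 13.60. Treated 3xTgAD/PolB+/- mice spanned less than their 3xTgAD counterparts, and the groups overlapped in both treatments. Apoe differed by 0.37 (SE 0.188, adjusted p = 0.650), or 0.17 under quantile normalization. Cd68, a lysosomal membrane protein of macrophages, differed by 0.43 (SE 0.344), and by 0.26 without replicate 4 of the vehicle 3xTgAD/PolB+/- group.

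The antigen presentation list had all 9 tested members of 21 above 0, with a median of 0.34. Quantile normalization left 6 of them above 0, with a median of 0.21, and on vehicle alone the median was 0.14 with 7 above 0. H2-K1, a class I heavy chain, differed by 0.61 (SE 0.302, adjusted p = 0.650), and Psme2, a proteasome activator subunit, by 0.18 (SE 0.0841, adjusted p = 0.650). Without replicate 4 of the vehicle 3xTgAD/PolB+/- group H2-K1 differed by 0.47. It differed by 0.75 without replicate 5 of the vehicle 3xTgAD group. Of 20 tested cytokine and innate signalling genes, of 74 listed, 18 were above 0 with a median of 0.22, and quantile normalization left 13 above 0 with a median of 0.10. Tlr7, an endosomal receptor of single-stranded RNA, differed by 0.59 (SE 0.273, adjusted p = 0.650), and the chemokine gene Ccl2 by 0.69 (SE 0.388, adjusted p = 0.662). Ccl2 spread from 3.13 to 6.23 among vehicle 3xTgAD mice, a range that held 3 of the 4 vehicle 3xTgAD/PolB+/- mice.

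Markers of immune cells also lay mostly above 0. Of 7 tested microglia and macrophage markers, of 26 listed, 5 were above 0 with a median of 0.32, which was 0.19 without the mice of low total count and 0.19 under quantile normalization. Their summed normalized counts ran from 1915 to 6649 in vehicle 3xTgAD/PolB+/- mice and from 2252 to 7917 in vehicle 3xTgAD mice. Under urolithin A the sums ran from 3017 to 5211 against 2579 to 5613. Of 10 tested lymphocyte markers, of 35 listed, 9 were above 0 with a median of 0.28, which was 0.10 without the mice of low total count and 0.07 under quantile normalization. Summed lymphocyte markers ran from 186 to 540 against 191 to 507 on vehicle and from 219 to 487 against 229 to 464 under urolithin A. No value of either list was at 0 counts, but the lowest were 1 inferred count for Cd163 (microglia list) and 3 for Eomes (lymphocyte list). Background correction is not given, so such counts may not show detection. Low genes could also enter the test through high values in 3xTgAD/PolB+/- mice. Cd28 of the lymphocyte list entered at 4.36, 4.35 and 4.46 in such mice and 4.43 in a treated 3xTgAD mouse. The part of these markers in the differences above was not tested. The vehicle 3xTgAD mouse with the outlying Ctsz, Apoe and H2-K1 values was replicate 5. Without it the medians were 0.31 for the lysosome list, 0.51 for the microglia signature and 0.43 for antigen presentation. Without the mice of low total count they were 0.19 (10 of 12 above 0), 0.31 (7 of 7) and 0.22 (8 of 9). The median of the cytokine list was 0.33 without replicate 5 and 0.16 without the mice of low total count.

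Cd247 and Lta were 2 immune genes among the 20 with the smallest p. Cd247, the zeta chain of the T cell receptor complex, was at 4.25, 4.34, 4.58 and 5.12 in vehicle 3xTgAD/PolB+/- mice and at 3.91, 4.11, 4.19, 4.39 and 4.42 in vehicle 3xTgAD mice. In treated mice it was at 4.10, 4.60, 4.69, 5.11 and 5.55 against 3.84, 3.93, 4.04, 4.16 and 4.31. The 2 highest treated values were those of the mice of low total count, each on 17 inferred counts, and the groups overlapped in both treatments. The difference was 0.57 (SE 0.178, adjusted p = 0.541) and 0.39 without those mice. Lta, the cytokine lymphotoxin alpha, differed by 0.56 (SE 0.207, adjusted p = 0.650), by 0.38 without them and by 0.35 under quantile normalization. Lta stood on 18 and 15 inferred counts in those mice and on 11 to 30 in the others.

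**Figure D3:**
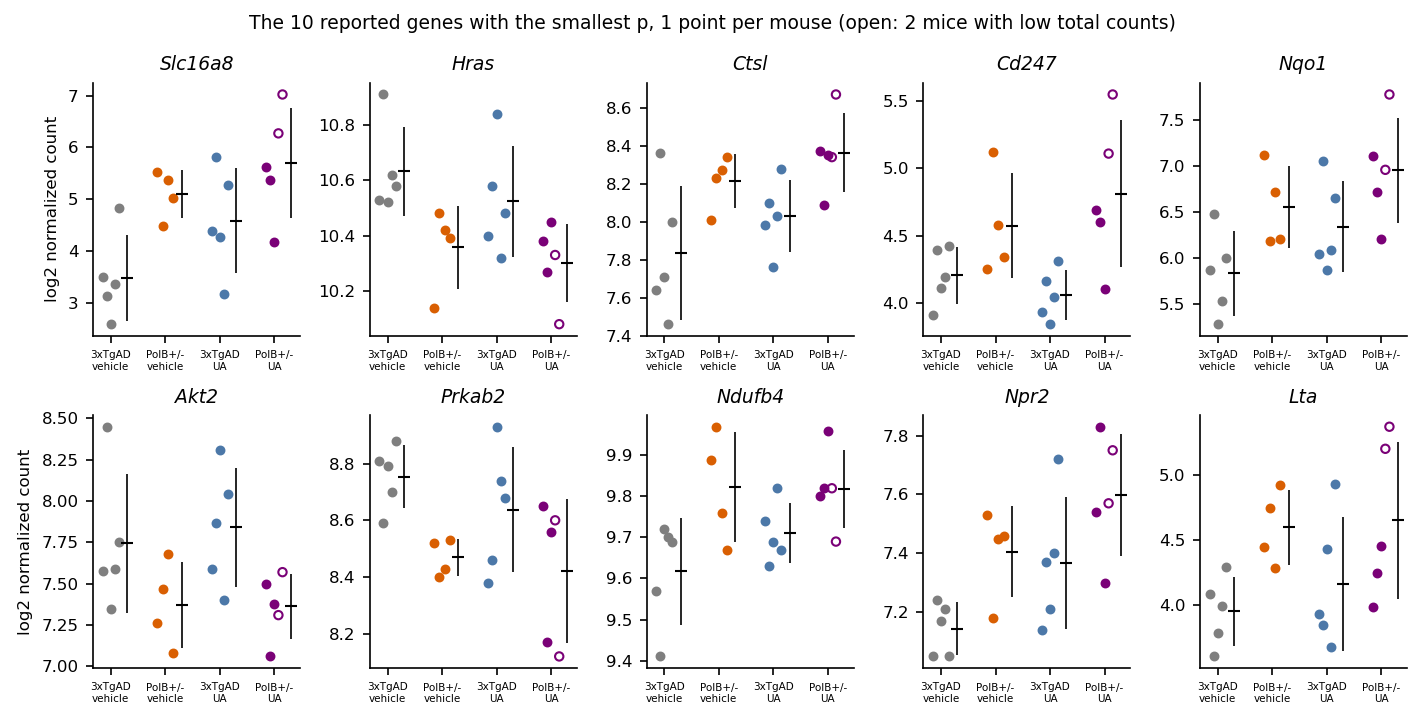
Log2 normalized counts of the 10 reported genes with the smallest p, 1 point per mouse in each of 4 groups; the black dash and line are the group mean ± SD, and open points are the 2 mice of low total count. In all 10 panels the 3xTgAD/PolB+/- mean lies on the same side of the 3xTgAD mean under both treatments, and points of the genotypes overlap in at least 1 treatment.

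Growth factor signalling genes included 2 of the lower genes. Hras, a small GTPase that passes receptor signals to the MAPK cascade, was at 10.14, 10.39, 10.42 and 10.48 in vehicle 3xTgAD/PolB+/- mice and at 10.52, 10.53, 10.58, 10.62 and 10.91 in vehicle 3xTgAD mice, with no overlap. With urolithin A it lay at 10.08, 10.27, 10.33, 10.38 and 10.45 against 10.32, 10.40, 10.48, 10.58 and 10.84, with overlap. All 9 mice were below the 3xTgAD mean of their treatment, which choosing genes by smallest p favours. The difference was -0.25 (SE 0.0721, adjusted p = 0.541). Akt2, a kinase of insulin signalling, was at 7.08, 7.26, 7.47 and 7.68 against 7.35, 7.58, 7.59, 7.75 and 8.45 on vehicle. Under urolithin A it was at 7.06, 7.31, 7.38, 7.5 and 7.57 against 7.40, 7.59, 7.87, 8.04 and 8.31. All 9 again lay below the 3xTgAD mean of their treatment, the groups overlapped in both, and the difference was -0.43 (SE 0.139, adjusted p = 0.541).

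Of 24 tested PI3K-AKT and MAPK genes, of 43 listed, 21 were below 0 with a median of -0.04. Of 19 tested mTOR and AMPK genes, of 37 listed, 16 were below 0 with a median of -0.06. Without replicate 5 of the vehicle 3xTgAD group 16 of 24 and 13 of 19 were below 0. Without the mice of low total count 18 and 14 were, and under quantile normalization 22 and 16 were. On vehicle alone 12 of the 24 and 7 of the 19 were above 0. Prkab2, a regulatory subunit of the energy sensor AMPK, was at 8.4, 8.43, 8.52 and 8.53 in vehicle 3xTgAD/PolB+/- mice and at 8.59, 8.70, 8.79, 8.81 and 8.88 in vehicle 3xTgAD mice. In treated mice it was at 8.12, 8.17, 8.56, 8.60 and 8.65 against 8.38, 8.46, 8.68, 8.74 and 8.93. The groups were apart on vehicle and overlapped under urolithin A. The difference was -0.25 (SE 0.0825, adjusted p = 0.541). Akt1s1, an inhibitory subunit of mTOR complex 1, differed by -0.11 (SE 0.0594, adjusted p = 0.651), or -0.07 with array weights. In both lists the medians were nearer 0 on vehicle, at 0.00 and -0.02, than under urolithin A, at -0.13 and -0.09. Autophagy genes, with 8 of 46 tested, had 5 below 0 and a median of -0.07. On vehicle 7 of them were above 0 with a median of 0.04, and under urolithin A 2 were, with a median of -0.14. Over all 617 tested genes, 402 were above 0 on vehicle and 318 under urolithin A, with medians of 0.05 and 0.01. List counts within treatments were not taken under other scalings. Among the autophagy genes Pik3r4, a subunit of the lipid kinase that starts autophagosomes, differed by -0.11 (SE 0.0515, adjusted p = 0.650). Sqstm1, the cargo receptor p62, differed by 0.08 (SE 0.0412, adjusted p = 0.650).

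Oxidative stress genes showed 1 leading member. Nqo1, a quinone reductase and a target of the transcription factor NRF2, was at 6.18, 6.21, 6.72 and 7.12 in vehicle 3xTgAD/PolB+/- mice and at 5.28, 5.53, 5.87, 6.0 and 6.48 in vehicle 3xTgAD mice. With urolithin A it lay at 6.21, 6.72, 6.96, 7.11 and 7.78 against 5.87, 6.04, 6.09, 6.65 and 7.06. The groups overlapped in both treatments. The difference was 0.67 (SE 0.212, adjusted p = 0.541), and 0.43 with the Ttr level as a covariate. The glutathione and ferroptosis list, with 17 of 41 tested, had 13 above 0 and a median of 0.07. Gpx4, which reduces lipid peroxides, differed by 0.11 (SE 0.0566, adjusted p = 0.650). Aox1, an aldehyde oxidase, differed by 0.42 (SE 0.171, adjusted p = 0.650), and by 0.24 with the Ttr covariate.

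Mitochondrial respiration genes lay close to 0. Their 35 tested members, of 81 listed, split 17 above, 17 below and 1 at 0, between -0.13 and 0.15, with a median of 0.00. With every mouse centred on its median 9 were above and 26 below 0, with a median of -0.03. On vehicle 21 were above 0, and under urolithin A 10 were, against 402 and 318 of 617 over all tested genes. Ndufb4, an accessory subunit of complex I, was at 9.67, 9.76, 9.89 and 9.97 in vehicle 3xTgAD/PolB+/- mice and at 9.41, 9.57, 9.69, 9.70 and 9.72 in vehicle 3xTgAD mice. Under urolithin A it was at 9.69, 9.80, 9.82, 9.82 and 9.96 against 9.63, 9.67, 9.69, 9.74 and 9.82. The groups overlapped in both treatments. Its difference was 0.15 (SE 0.0530, adjusted p = 0.585). Ndufb11, another accessory subunit of complex I, differed by 0.11 (SE 0.0443, adjusted p = 0.650). Fdx1, a ferredoxin that passes electrons within mitochondria, differed by 0.20 (SE 0.0825, adjusted p = 0.650).

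In the tricarboxylic acid cycle, 7 of 19 tested genes were above 0 and the median was -0.03. On vehicle 13 were above 0 with a median of 0.03, and under urolithin A 4 were, with a median of -0.08. The medians over all tested genes were 0.05 and 0.01. Idh2, the mitochondrial NADP-dependent isocitrate dehydrogenase, was at 5.30, 5.69, 5.78 and 5.95 in vehicle 3xTgAD/PolB+/- mice and at 5.12, 5.39, 5.40, 5.48 and 5.84 in vehicle 3xTgAD mice. In treated mice it was at 5.66, 5.81, 5.81, 5.98 and 6.11 against 5.04, 5.31, 5.5, 5.54 and 5.81. The groups overlapped in both. The difference was 0.34 (SE 0.125, adjusted p = 0.650) and 0.16 under quantile normalization. Idh3b, a subunit of the NAD-dependent isocitrate dehydrogenase, differed by -0.11 (SE 0.0441, adjusted p = 0.650), or -0.06 under quantile normalization.

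Glycolysis genes had 17 of 25 tested members below 0 and a median of -0.04, or -0.02 under quantile normalization. On vehicle 14 were above 0 with a median of 0.01, and under urolithin A 10 were, with a median of -0.07. Over all tested genes the medians were 0.05 and 0.01. Pfkfb1, a bifunctional enzyme that sets the level of fructose 2,6-bisphosphate, was at 4.48, 4.56, 4.72 and 4.86 in vehicle 3xTgAD/PolB+/- mice and at 3.59, 3.75, 4.0, 4.30 and 4.46 in vehicle 3xTgAD mice, which did not overlap. In treated mice it was at 4.49, 4.55, 4.68, 5.03 and 5.05 against 4.21, 4.23, 4.25, 4.75 and 5.21, which did. Pfkfb1 differed by 0.42 (SE 0.169, adjusted p = 0.650) and by 0.19 under quantile normalization. It stood on 16 and 12 inferred counts in the mice of low total count.

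Other metabolic lists had medians of at most 0.10, against 0.03 over all tested genes. By treatment, the median over all tested genes was 0.05 on vehicle and 0.01 under urolithin A. Fatty acid oxidation had 6 of 9 above 0 with a median of 0.10, and its leading member Acaa2, a thiolase, differed by 0.29 (SE 0.173). Without replicate 5 of the treated 3xTgAD/PolB+/- group Acaa2 differed by 0.19, and with the Ttr covariate by 0.15. It differed by 0.04 on vehicle and by 0.50 under urolithin A. With the Ttr covariate the median of the fatty acid oxidation list was 0.00. Fatty acid and sterol synthesis had 5 of 8 above 0 with a median of 0.04, with 3 above 0 on vehicle and 6 under urolithin A. Its Acacb, the mitochondria-linked acetyl-CoA carboxylase, differed by 0.56 (SE 0.261, adjusted p = 0.650) and by 0.25 with the Ttr covariate, and its Srebf2, a regulator of cholesterol synthesis, by -0.12 (SE 0.0539, adjusted p = 0.650). The pentose phosphate list had 6 of 8 above 0 with a median of 0.05, or -0.07 under quantile normalization, led by Tkt, transketolase, at 0.12 (SE 0.0642). On vehicle 7 of those 8 were above 0, and under urolithin A 3 were. Amino acid genes had 17 of 25 above 0 with a median of 0.05, and Srr, which makes the NMDA receptor co-agonist D-serine, differed by -0.17 (SE 0.0796, adjusted p = 0.650). Srr differed by -0.11 with the Ttr covariate and by -0.08 on vehicle. The 5 tested proteasome genes lay between 0.00 and 0.07 over both treatments. All 5 were above 0 on vehicle, with a median of 0.11, and 1 was under urolithin A, with a median of -0.03.

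Ddc, Rest, Npr2 and Vegfa came from other pathways. Ddc, the decarboxylase of dopamine and serotonin synthesis, was at 5.19, 5.25, 5.53 and 6.23 in vehicle 3xTgAD/PolB+/- mice and at 4.61, 4.67, 4.74, 4.91 and 5.73 in vehicle 3xTgAD mice. Under urolithin A it was at 4.60, 5.12, 5.85, 5.93 and 6.18 against 4.67, 5.17, 5.20, 5.25 and 5.27. Both pairs of groups overlapped, and Ddc differed by 0.52 (SE 0.212, adjusted p = 0.650). Rest, a repressor of neuronal genes, differed by 0.42 (SE 0.174, adjusted p = 0.650) and by 0.27 with the Ttr covariate. Npr2, the receptor of C-type natriuretic peptide, was at 7.18, 7.45, 7.46 and 7.53 against 7.05, 7.05, 7.17, 7.21 and 7.24 on vehicle. Under urolithin A Npr2 was at 7.30, 7.54, 7.57, 7.75 and 7.83 against 7.14, 7.21, 7.37, 7.40 and 7.72, and its difference was 0.24 (SE 0.0848, adjusted p = 0.585). Vegfa, the vascular growth factor, differed by 0.28 (SE 0.120, adjusted p = 0.650) and by 0.17 without replicate 1 of the vehicle 3xTgAD/PolB+/- group. The hypoxia and vascular list had 9 of 14 above 0 with a median of 0.04, or -0.02 under quantile normalization.

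**Figure D4:**
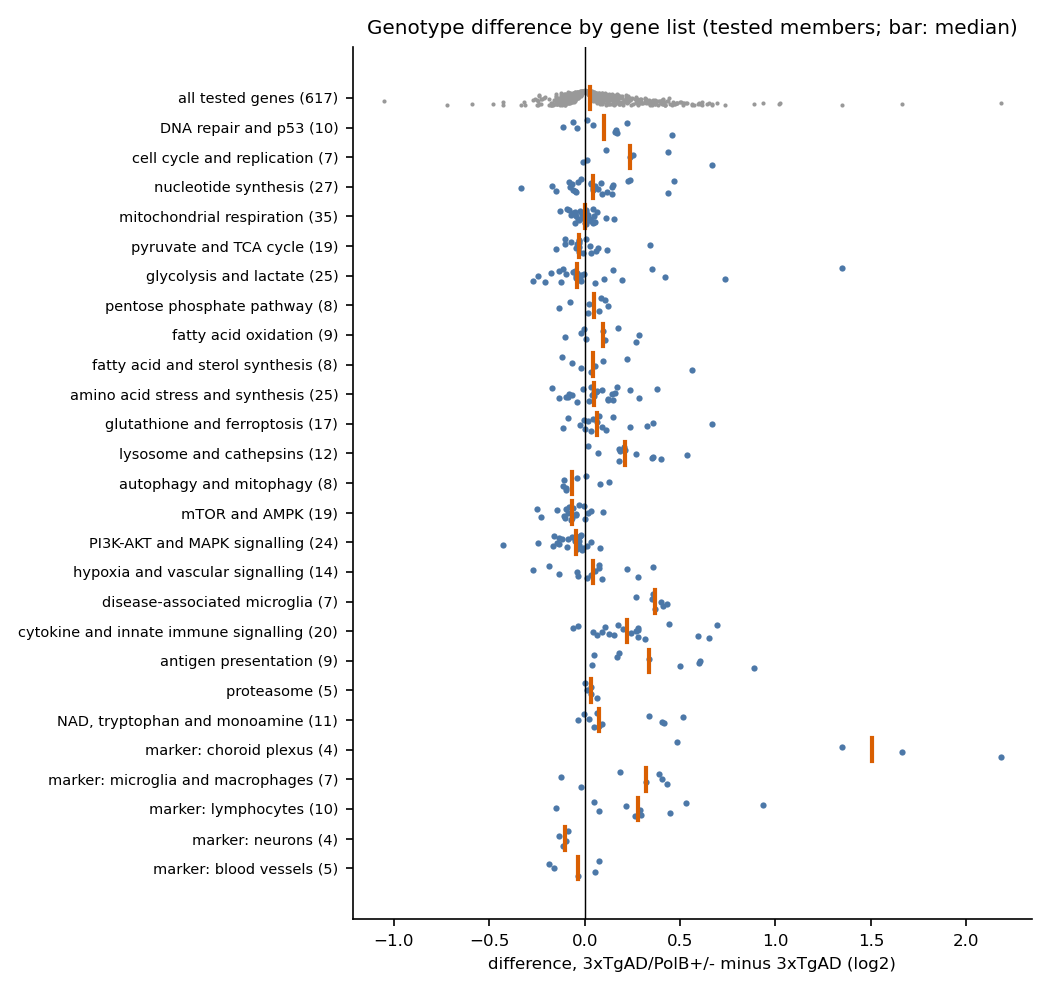
Genotype difference (log2) of each tested member of the lists with at least 3 tested members, with the number tested in brackets and the median as an orange bar. Medians were 0.03 over all tested genes, 0.37 for the microglia signature and 1.51 for the choroid plexus markers.

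The 3 largest positive differences on the panel were those of choroid plexus markers, Ttr, Folr1 and Slc16a8. Slc16a8, a lactate transporter of the choroid plexus and retinal epithelium, had the smallest p of all genes. It was at 4.48, 5.03, 5.38 and 5.53 in vehicle 3xTgAD/PolB+/- mice and at 2.59, 3.14, 3.37, 3.50 and 4.83 in vehicle 3xTgAD mice. In treated mice it was at 4.17, 5.37, 5.63, 6.27 and 7.02 against 3.17, 4.28, 4.38, 5.27 and 5.81. The groups overlapped in both treatments, and the difference was 1.35 (SE 0.379, adjusted p = 0.541 in limma).

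Ttr, the choroid plexus transthyretin gene, differed by 2.18 (SE 1.28, adjusted p = 0.662) and was in the high range in 7 of 9 3xTgAD/PolB+/- mice and 4 of 10 3xTgAD mice. On vehicle it was high in 3 of 4 against 1 of 5, and under urolithin A in 4 of 5 against 3 of 5. Folr1, a folate receptor of the same epithelium, differed by 1.66 (adjusted p = 0.650), and by 0.29 with Ttr as a covariate. The leptin receptor gene Lepr differed by 0.48 (SE 0.286, adjusted p = 0.662), and by 0.13 with the Ttr covariate. With the Ttr covariate Slc16a8 differed by 0.83. All 4 tested markers, of 12 listed, were thus above 0. None was at 0 counts in any mouse, and the lowest inferred count was 7, for Slc16a8. Their summed level ran from 125 to 5188 against 139 to 2785 on vehicle. Under urolithin A it ran from 179 to 13187 against 129 to 9460. With Ttr as a covariate 18 genes of the panel had an unadjusted p under 0.05. Neuronal markers, with 4 of 22 tested, were all below 0 over both treatments with a median of -0.10. Within each treatment taken alone, 2 of the 4 were above 0. Sums of the neuronal markers ran from 7001 to 7733 against 6657 to 8281 on vehicle. Under urolithin A they ran from 6394 to 7787 against 6704 to 10035. The part of tissue make-up in the genotype differences was not tested further.

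The genotype difference was also taken within each treatment, where no mouse was shared between the comparisons. On vehicle, 0 genes passed the adjusted threshold (0.0%, smallest adjusted p 0.993) and 24 had an unadjusted p under 0.05 (3.89%), 17 higher and 7 lower. Under urolithin A, 0 passed (0.0%, smallest adjusted p 0.527) and 48 had an unadjusted p under 0.05 (7.78%), 12 higher and 36 lower. These splits moved with the scaling, which was tried for them after the data were seen. With quantile normalization 8 of 27 were higher on vehicle and 18 of 48 under urolithin A, and with each mouse centred on its median 8 of 22 and 14 of 48 were. Centring on Gapdh and Hprt gave 8 of 14 and 12 of 30. Genes named above moved both ways. Those with a larger difference on vehicle than under urolithin A included Cdc20 (1.10 and 0.28), Pfkfb1 (0.64 and 0.23), Upp1 (0.71 and 0.25), Vegfa (0.44 and 0.14), Ctsz (0.42 and 0.14) and Gpx4 (0.19 and 0.04). Those with a smaller one on vehicle included Cd247 (0.37 and 0.75), Rest (0.24 and 0.59), Pole (0.23 and 0.66), Psme2 (0.09 and 0.26) and Acaa2 (0.04 and 0.50). None was past the adjusted threshold of the interaction test. The differences had the same sign in both treatments for 357 of 617 genes (57.9%). Of the 24 genes marked on vehicle, 18 (75%) kept their sign under urolithin A, and of the 48 marked under urolithin A, 24 (50%) kept it on vehicle. Only Ctsl and Hras, 2 of 617 genes, were marked in both. All 20 genes with the smallest p of the joint comparison had the same sign in both treatments, which such a choice favours.

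Whether the genotype difference itself depended on treatment was tested with an interaction term. It called 0 genes at the adjusted threshold (0.0%, smallest adjusted p 0.990) and marked 26 at an unadjusted p under 0.05 (4.21%), of which 23 had a lower difference under urolithin A. That split depended on the scaling, with 9 of 14 lower when each mouse was centred on its median, 9 of 18 under quantile normalization and 8 of 12 with centring on Gapdh and Hprt. Afmid, the kynurenine formamidase, differed by -0.09 on vehicle and 0.84 under urolithin A (interaction unadjusted p = 0.0268). Nat8l, which makes N-acetylaspartate in neurons, differed by 0.18 and -0.42 (interaction unadjusted p = 0.0193). Groups that did not overlap were seen for 9 genes on vehicle (1.46%) and 8 under urolithin A (1.3%). Those on vehicle included Cdc20, Pfkfb1 and Psma3 on the high side and Hras, Prkab2 and Srm on the low side. Those under urolithin A included Afmid on the high side and Idh3b on the low side. No gene separated all 9 from all 10 mice (0.0%).

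**Figure D5:**
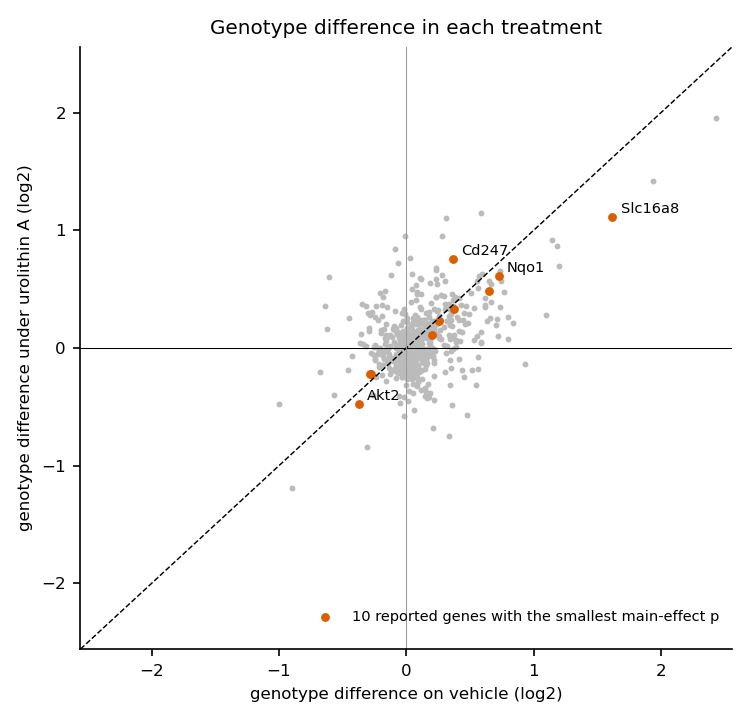
Genotype difference on vehicle (horizontal, log2) against that under urolithin A (vertical, log2) for 617 genes, with the 10 reported genes of smallest main-effect p in orange and equality dashed. Slc16a8 lay at 1.62 and 1.11, and 357 genes had the same sign in both.

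Mapt, the tau gene, is of interest because both genotypes carry a human tau transgene, and whether the panel's probe reads it is not given in the sources used here. It was at 9.59, 10.11, 10.34 and 10.58 in vehicle 3xTgAD/PolB+/- mice and at 10.16, 10.30, 10.38, 10.46 and 10.74 in vehicle 3xTgAD mice. With urolithin A it lay at 10.08, 10.09, 10.43, 10.44 and 10.49 against 10.09, 10.12, 10.32, 10.34 and 10.60. The groups overlapped in both treatments, and Mapt differed by -0.11 (SE 0.115, adjusted p = 0.770), with -0.25 on vehicle and 0.01 under urolithin A, or -0.02 without replicate 1 of the vehicle 3xTgAD/PolB+/- group.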

How the data were processed

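The deposited table holds log2 values of normalized nCounter counts, made by the authors with nCounter Advanced Analysis per the series' design text. Its version, the background correction and the normalization genes are not given in the sources used here. Of 768 rows, 20 panel reference genes held no value and 748 genes had values. Low values minus a constant of each mouse were log2 of whole numbers (at least 99.6% within 0.0125, counts up to 40), which gave the inferred counts. A value of 20 stood for 7.27 to 29.7 inferred counts, and sums and inferred counts cover counting error only. Symbols were matched to RefSeq for 747 genes.

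Genes reaching a normalized value of 20 in at least 4 of the 19 mice were tested (617 kept, 131 left out). The mice could be of either genotype, so a gene of low level could enter through the genotype where it was high. The model held genotype and treatment (limma 3.58.1 in R 4.3.3, lmFit and eBayes with trend, two-sided, Benjamini-Hochberg over 617 genes, threshold 0.05). Within-treatment and interaction values came from a model with 4 group means. Named were the 20 genes with the smallest p, since none passed, the 2 smallest-p members in each of 26 lists with at least 3 tested members, and Mapt, Apoe and Ctsz. Ttr, Lepr and the panel genes nearest Polb in order were added, and some named genes are left out of the text. The comparison, lists and members were chosen with earlier results of these data known. Alternatives covered scaling, filter, covariates, tests and leaving out mice. Replicate numbers recur across groups, but the labels tie them to no shared litter or batch, and they were not used to pair mice. The workflow was tested on simulated data, where it called 0 genes without changes.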

Additional observations from a re-analysis of the deposited data

Results flagged for a closer look

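Of 236 sets of values tested, 1 gene in 1 group each, 19 had a highest or lowest mouse far from the others, and chance flags about 1 in 20. Replicate 5 of the vehicle 3xTgAD group gave 9 of them. It was the highest of its group for Hras at 10.91, Srm at 9.30, Ddc at 5.73, Rest at 7.31, Tkt at 10.71, Echs1 at 9.06, Apoe at 13.99, H2-K1 at 9.30 and Ctsz at 10.47. In the vehicle 3xTgAD/PolB+/- group, replicate 1 was lowest for Srm at 8.48 and Srebf2 at 10.54 and stood apart for Vegfa at 9.41 and Lama4 at 5.69, and replicate 4 stood apart for Tlr7 at 6.36. Among treated 3xTgAD mice, replicate 2 was lowest for Ddc at 4.67 and replicate 4 lowest for Psma3 at 11.17. Among treated 3xTgAD/PolB+/- mice, replicate 2 was lowest for Folr1 at 4.03, and replicate 5 was lowest for Akt1s1 at 8.24 and stood apart for Eomes at 5.78.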

How the results depend on the processing

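Under 38 alternatives, 19 of which left out 1 mouse, the count of genes past the threshold for the genotype main effect stayed at 0 except with the replicate block, and the interaction count stayed at 0 in every alternative run. Leaving out single mice gave 0 genes past the threshold each time, with smallest adjusted p of 0.130 (without replicate 5 of the vehicle 3xTgAD group) to 0.856. With the replicate block, 2 genes passed, Ctsl at 0.40 and Slc16a8 at 1.41 (adjusted p = 0.0391 each), and 92 genes had an unadjusted p under 0.05. The labels tie the numbers to nothing shared. Of 27 same-numbered pairs of mice, 17 had deviations correlated above 0.1, from -0.391 to 0.546. Pairs with different numbers were not compared, so these correlations cannot show whether the block has a meaning. The 2 calls thus rest on numbers without a stated basis. Counts at an unadjusted p under 0.05, 40 as reported, were 86 with array weights, 21 without both mice of low total count and 18 with Ttr as a covariate. They were 48 of 748 genes without a filter, 32 of 496 with a filter of 50, 50 with sex as a covariate and 29 after centring on Gapdh and Hprt, which was chosen after seeing the data. Centring on the panel reference genes was not run, because they hold no value.

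Of the named genes' values, 2184 kept direction and side of the threshold. As none passed in the main fit, keeping its side meant staying short of the threshold. The 19 reported of the 20 genes with the smallest p reversed under none of the alternatives, which such a choice favours. Most alternatives share nearly all mice, and some change the test but not the difference. Reversed were Psmb3 at -0.032 and Mapt at 0.012 under urolithin A alone, and Afmid at -0.085, Grin1 at 0.05, Nat8l at 0.18 and Lama4 at 0.0195 on vehicle alone, which hold fewer mice. The genotype difference in inferred total counts was -46132 with all mice and 30167 without the 2 of low total count (exact permutation p = 0.473). Depth limits genes of low level, where a value of 20 is under 10 counts in those 2 mice.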
